A study of Homo sapiens with 6 samples.

Results

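The nuclear-encoded genes of the respiratory chain were described in OE-19 cells, a human line of adenocarcinoma of the esophagogastric junction (AEG), with and without knockdown of *IGF2BP3*. IGF2BP3 is an RNA-binding protein that recognizes m6A-modified mRNAs and is known for stabilizing its targets. The genes were taken by a rule on their symbols that uses no measured value, but the list was chosen with earlier results of these data known. The rule took coding genes whose symbols begin with NDUFA, NDUFB, NDUFC, NDUFS, NDUFV, UQCR, ATP5 or any of COX4 to COX8. It also took *SDHA*, *SDHB*, *SDHC* and *SDHD*. This gave 98 genes of the 60480 identifiers in the deposited table, 45 of complex I, 4 of complex II, 9 of complex III, 19 of complex IV, 19 of complex V and 2 readthrough genes. *NDUFA4* and its paralog *NDUFA4L2* were counted with complex IV, where the NDUFA4 protein is now placed. The symbols also took in 8 assembly factors of complex I, and left out *CYC1*, a core subunit of complex III, and the subunits encoded by mitochondrial DNA, which are given separately.

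The study made polyA RNA-seq libraries from OE-19 cells with a control shRNA (3 libraries, control) and from OE-19 cells with an shRNA against *IGF2BP3* (3 libraries, IGF2BP3 KD). All cells were grown in the same medium with serum, and the control columns carry the name Puro. The sources used here do not say whether the 3 IGF2BP3 KD libraries carry the same shRNA, nor whether libraries of a group come from separate cultures. P-values then measure the spread between these libraries, which may be technical.

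The respiratory chain sits in the inner mitochondrial membrane. Complexes I and II pass electrons from NADH and succinate to ubiquinone, complex III passes them on to cytochrome c, and complex IV hands them to oxygen, while complex V, the ATP synthase, uses the proton gradient that the chain builds. Most subunits are encoded in the nucleus, made in the cytosol and imported, and must be joined with the few subunits made from mitochondrial DNA. Tumor cells differ widely in how much ATP they draw from this chain and how much from glycolysis.

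Counts per library summed to between 53424071 and 69989087. The target itself, *IGF2BP3*, gave 7416, 7363 and 6532 counts in the control and 777, 792 and 794 counts in the IGF2BP3 KD libraries, a log2 fold change of -3.03 (SE 0.06), so the knockdown matched the labels in all 6 libraries. All 6 epithelial markers were expressed, with a summed level of 18159 to 19144 CPM in control and 19831 to 20289 CPM in IGF2BP3 KD libraries. Most of this sum was *ERBB2*, at 12478.5 to 13396 CPM in control and 14123.5 to 14652.6 CPM in IGF2BP3 KD libraries. Of 9 markers of other cells, *CD3E*, *COL1A2* and *DES* had no count in any library, *PTPRC* and *PECAM1* stayed at or under 0.127 CPM, and their summed level of 21.4 to 24.2 CPM in control and 29.4 to 34.9 CPM in IGF2BP3 KD libraries was nearly all *COL1A1*. Values below are CPM, counts relative to library size, with library sizes scaled by edgeR's TMM method, in the order of replicates 1, 2 and 3. A gene is called lower or higher in IGF2BP3 KD when edgeR's quasi-likelihood test gives it a p under 0.05 after adjustment over 19778 genes. Of the epithelial markers, *EPCAM* at a log2 fold change of 0.15 and *ERBB2* at 0.13 were higher. *KRT8* at -0.06 and *KRT18* at -0.07 were lower, and *CDH1* and *KRT19* were not called.

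Respiratory chain mRNAs changed little after IGF2BP3 KD, and those that passed the test were mostly higher. Of the 93 genes tested, 3 were lower, all of complex I, against 10.6% of all tested genes. There were 14 higher genes, spread over complexes I to V, against 9.87% of all tested genes. As shares of the 93 genes, these were 3.23% and 15.1%. The split of lower and higher genes was 6 and 15 with DESeq2, 8 and 16 with offsets that level the dependence on GC content, and 5 and 9 with offsets for exonic length. Over all 19778 genes, the split in that order was 2503 and 2286, 2466 and 2089, and 2123 and 1917. The median log2 fold change was 0.05, against 0.01 over all tested genes. All 17 called genes had a mean CPM of 10 or more. Among coding genes at this level, 19.7% were lower and 16.6% higher, while of the 82 respiratory chain genes at this level 3.66% were lower and 17.1% higher. In bulk libraries, less mRNA per cell and fewer cells that hold it cannot be told apart.

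The values of the IGF2BP3 KD libraries lay all below those of the control libraries in 10 of the 93 genes and all above them in 26, against 17.8% and 18.0% of all tested genes. Of the 82 members with a mean CPM of 10 or more, 10 lay below and 25 above. For the 9513 coding genes at this level, these counts were 2694 and 2340. Before adjustment, 9 genes had a p under 0.05 toward lower and 24 toward higher, against 15.3% and 15.5% of all tested genes. Among the 82 members these counts were 9 and 22, and among the 9513 coding genes 2545 and 2220. Of the 17 calls, 6 held in each of the 6 fits that left out 1 library: *NDUFB9*, *NDUFS5*, *UQCRC2*, *UQCR10*, *NDUFA4* and *ATP5IF1*. Of these 6, *NDUFS5* was not called with offsets for exonic length. The number of higher genes was 13, 7 and 6 without control replicate 1, 2 and 3, and 9, 6 and 8 without IGF2BP3 KD replicate 1, 2 and 3. The number of lower genes in the same order was 2, 2, 1, 2, 1 and 4. Each of these fits tested between 20562 and 20725 genes of the whole series. Of these, 1741, 1489, 1414, 1433, 1429 and 1424 were higher, and 1970, 1712, 1641, 1696, 1656 and 1778 lower.

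**Figure D1:**
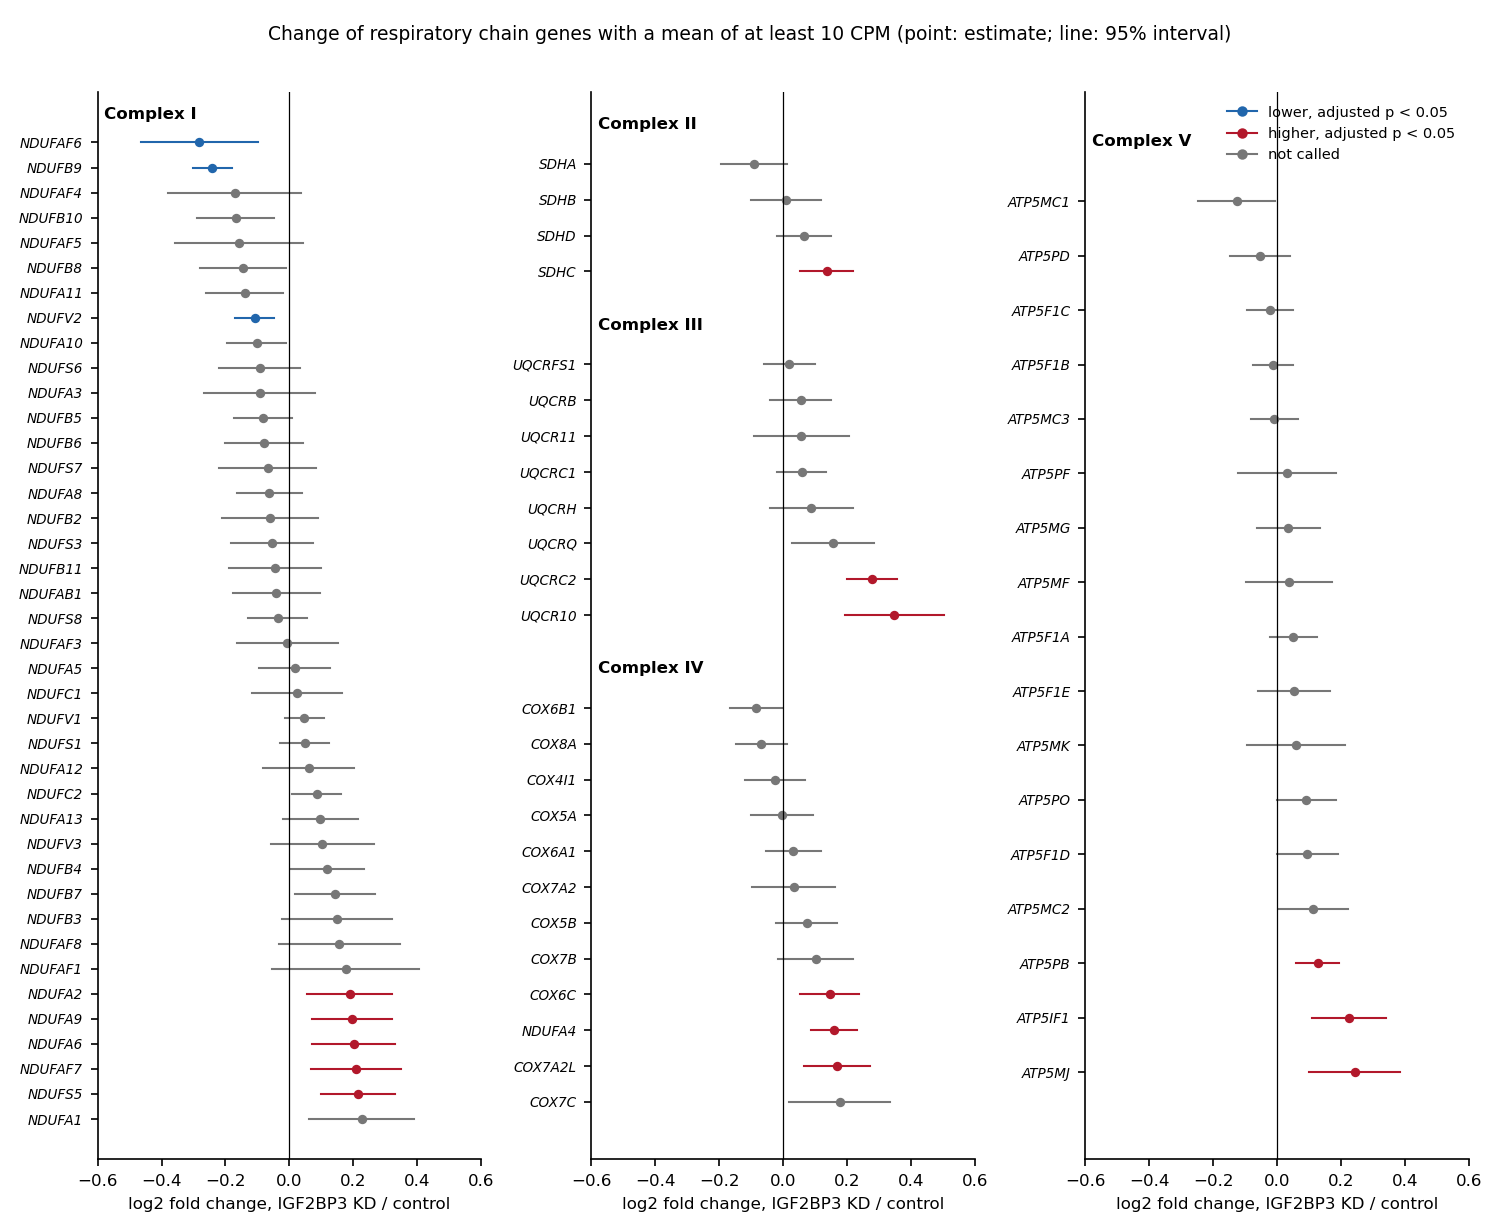
The log2 fold change of IGF2BP3 KD over control (x axis) for 81 of the 82 genes with a mean CPM of 10 or more, with its 95% interval, by complex. The 3 lower genes (blue) are all in complex I, and the 14 higher genes (red) are in all 5 complexes.

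The changes were also small in size. Of the 82 genes with a mean CPM of 10 or more, 79 had a log2 fold change within 0.25 of 0, a share of 96.3%, against 78.3% of the 9513 coding genes at this level. The exceptions were *NDUFAF6*, *UQCRC2* and *UQCR10*. For 56 of the 82 genes (68.3%) the whole 95% interval lay within 0.25 of 0, against 45.5% of the coding genes. The median absolute log2 fold change was 0.09 in the respiratory chain and 0.13 in the coding genes, with median standard errors of 0.05 and 0.06. No list test was made of these differences.

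**Figure D2:**
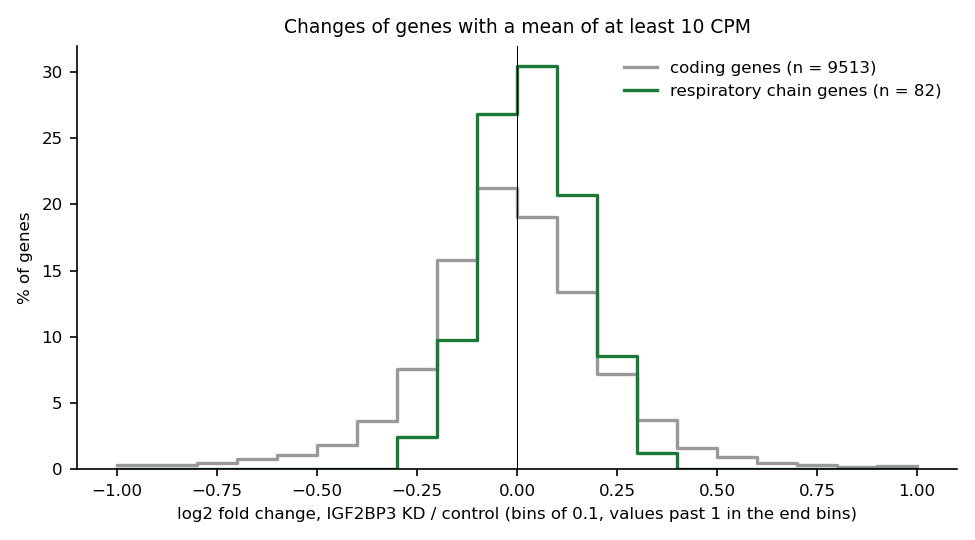
The share of genes (y axis, percent) by log2 fold change (x axis, bins of 0.1) among the 82 respiratory chain genes and the 9513 coding genes with a mean CPM of 10 or more. The respiratory chain genes lie between -0.28 and 0.35, while the coding genes reach beyond 1 on either side.

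Among 92 tested members with an annotated 3′ UTR its median length was 210 bases, against 1256 bases in 13918 tested coding genes, while 19 of the 92 had a 3′ UTR longer than this median of the coding genes. Members with a mean CPM of 10 or more also had a median level of 67.1 CPM per kilobase, against 13.9 for coding genes at this level. Words of 7 bases were looked up in these 3′ UTRs. In these libraries, 35.1% of the 1072 coding genes that hold GATTACT there were lower, and 28.1% of the 1327 that hold ACACATC were higher. Of the 11726 coding genes with neither word, 13.1% were lower and 11.9% higher. Both words were chosen with earlier results of these counts known.

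GATTACT stands in the 3′ UTR of 7 of the 92 members (7.61%, against 7.70% of the coding genes): *NDUFA5*, *NDUFAF3*, *NDUFAF5*, *UQCRB*, *UQCRC2*, *ATP5F1A* and *ATP5F1E*. None of the 7 was called lower by edgeR or DESeq2, with 0 at a p under 0.05 toward lower before adjustment. Their log2 fold changes ran from -0.16 to 0.28, and 5 of the 7 have a 3′ UTR of over 3000 bases in the reference transcript. ACACATC stands in 4 members (4.35%, against 9.53%): *NDUFA5*, *NDUFA6*, *NDUFA9* and *NDUFAF5*. Of these, *NDUFA6* and *NDUFA9* were higher, and 3 of the 4, *NDUFA9* among them, have a 3′ UTR of over 3000 bases in the reference transcript. The sites in the called members are shown from the hg38 genome, 5′ to 3′ on the transcript strand, with the 7 bases in capitals. *UQCRC2*, the rise with the smallest p in the list, holds GATTACT, and the search found no ACACATC in the 3′ UTR of its reference transcript.
UQCRC2, chr16:21983503-21983531, plus strand: aaatagtgccaGATTACTattggtggcgt
NDUFA6, chr22:42086022-42086050, minus strand: gaccttggtatACACATCacctgttcttt
NDUFA9, chr12:4693924-4693952, plus strand: attggggaaaaACACATCttttctggggc
The word begins at base 343 of 489 of the 3′ UTR in *UQCRC2*, at base 144 of 657 in *NDUFA6* and at base 6827 of 7209 in *NDUFA9*. Whether these words act in any member was not tested.

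Genes of the respiratory chain are known to be driven by the transcription factors NRF1, GABP (also called NRF2) and YY1, often from sites close to the start of transcription. Promoters of 300 bases, from 250 before to 50 after the start, were found for 78 of the 98 members in RefSeq (GRCh38.p14). They were searched on both strands for GCGCATGC (NRF1), CCGGAAG (GABP) and AAGATGGC (YY1). The letters of GABP and YY1 can overlap by AAG. Those of YY1 contain ATG, so a match after the start can fall on a start codon. Such matches were not set apart in the counts below. The letters of NRF1 were held by 16 of the 78 (20.5%, against 3.68% of all 27305 genes with a promoter). Those of GABP were held by 23 (29.5%, against 12.2%) and those of YY1 by 13 (16.7%, against 3.52%). At least 1 of the 3 was held by 40 members (51.3%, against 17.6%). The 27305 genes outnumber the 19905 coding genes of the series, so their shares are not over coding genes alone. The median log2 fold change was 0.05 in these 40 genes and 0.05 in the 38 without them. Of the 10 higher genes with a promoter in the table, 3 held the letters of YY1, 1 those of NRF1 and none those of GABP. Of the 64 tested genes with a promoter that were not called, 10 held those of YY1, 15 those of NRF1 and 23 those of GABP. Only 1 lower gene had a promoter in the table, and it held none of them.

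The 3 higher genes with the letters of YY1 are shown beside *SDHB*, which holds all 3 and had a log2 fold change of 0.01 (SE 0.05). Matches are in capitals, on either strand, and each promoter runs 5′ to 3′ on the strand of its gene.
NDUFA6, chr22:42090723-42091022, minus strand: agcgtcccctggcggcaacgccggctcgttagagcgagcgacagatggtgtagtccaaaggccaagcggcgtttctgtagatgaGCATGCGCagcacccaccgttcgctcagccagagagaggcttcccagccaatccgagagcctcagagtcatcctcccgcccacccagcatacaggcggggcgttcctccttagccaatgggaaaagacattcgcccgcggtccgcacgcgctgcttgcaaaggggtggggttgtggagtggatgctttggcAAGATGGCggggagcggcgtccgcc
NDUFA9, chr12:4648864-4649163, plus strand: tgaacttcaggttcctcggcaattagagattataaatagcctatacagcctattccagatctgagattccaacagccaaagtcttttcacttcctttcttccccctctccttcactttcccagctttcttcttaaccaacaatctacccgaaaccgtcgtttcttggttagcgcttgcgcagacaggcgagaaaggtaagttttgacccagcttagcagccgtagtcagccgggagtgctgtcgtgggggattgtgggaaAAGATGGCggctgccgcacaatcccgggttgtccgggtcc
ATP5PB, chr1:111449214-111449513, plus strand: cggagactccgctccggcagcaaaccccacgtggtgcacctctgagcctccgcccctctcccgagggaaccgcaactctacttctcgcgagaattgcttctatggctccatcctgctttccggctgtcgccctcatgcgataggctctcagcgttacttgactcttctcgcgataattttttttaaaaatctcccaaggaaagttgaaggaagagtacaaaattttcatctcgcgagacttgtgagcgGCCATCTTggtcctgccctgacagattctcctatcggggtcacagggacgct
SDHB, chr1:17053983-17054282, minus strand: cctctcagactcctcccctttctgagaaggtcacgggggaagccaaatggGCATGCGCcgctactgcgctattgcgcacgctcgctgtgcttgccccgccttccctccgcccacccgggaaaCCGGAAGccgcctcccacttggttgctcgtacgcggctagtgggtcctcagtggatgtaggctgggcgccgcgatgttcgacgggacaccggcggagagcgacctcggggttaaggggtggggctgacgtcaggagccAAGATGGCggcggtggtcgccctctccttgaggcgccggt
The letters of YY1 begin within 26 bases of the start of transcription in all 4, 2 bases before it in *ATP5PB* and at base 11, 11 and 26 after it in *NDUFA9*, *SDHB* and *NDUFA6*. Whether the ATG of these letters is the start codon in *NDUFA9*, *SDHB* and *NDUFA6* was not tested. Those of NRF1 begin 166 bases before the start in *NDUFA6* and 200 bases before it in *SDHB*, where the letters of GABP begin 128 bases before it. A match is a description of these letters and not a site shown to be bound.

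Complex I, which oxidizes NADH, had 3 lower and 5 higher genes of 45, and the other 37 were not called. Its median log2 fold change was -0.03. Of its 7 core subunits in the list, among them the carriers of the flavin and the iron-sulfur clusters, only *NDUFV2* was called, of its 30 accessory subunits 1 was lower and 4 were higher, and of its 8 assembly factors 1 was lower and 1 higher.

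*NDUFB9* (ENSG00000147684, plus strand of chromosome 8 from 124539101 to 124580648, hg38), an accessory subunit of the membrane arm, was at 234, 227 and 231 CPM in control and 196, 194 and 196 CPM in IGF2BP3 KD libraries. The groups were far apart for their spread, and the log2 fold change was -0.24 (SE 0.03, edgeR adjusted p = 1.05e-04), so that the level fell by 15.4%. The annotated exons of *NDUFB9* share 2001 bases with *MTSS1* and 187 with *TATDN1*, both on the opposite strand. *MTSS1*, which codes for an actin-binding protein, was called higher, with a log2 fold change of 0.22 (SE 0.04). *NDUFV2* (ENSG00000178127, plus strand of chromosome 18 from 9102630 to 9134345), a core iron-sulfur subunit next to the site where NADH is oxidized, was at 242, 236 and 240.3 CPM in control and 218, 224 and 224 CPM in IGF2BP3 KD libraries. All 3 IGF2BP3 KD values were below all control values, with a log2 fold change of -0.11 (SE 0.03, edgeR adjusted p = 0.0171). The call was lost without control replicate 3 or IGF2BP3 KD replicate 1 or 2 (log2 fold change -0.12 to -0.10). *NDUFAF6* (ENSG00000156170, plus strand of chromosome 8 from 94895533 to 95116455), an assembly factor needed for the membrane subunit ND1, went from 22.1, 22.3 and 21.9 CPM to 16.2, 18.1 and 20.2 CPM. Its IGF2BP3 KD libraries differed among themselves more than its control libraries, and the log2 fold change was -0.28 (SE 0.08, edgeR adjusted p = 0.0345). This call was lost without control replicate 1, 2 or 3 or IGF2BP3 KD replicate 1 or 2 (log2 fold change -0.29 to -0.21). Its exons share 282 bases with *PLEKHF2* on the same strand, at 0.13 and not called.

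Further core subunits of complex I lay close to 0. *NDUFV1*, which holds the flavin, had a log2 fold change of 0.05 (95% interval -0.01 to 0.11), and *NDUFS1*, the largest subunit of the arm that faces the matrix, 0.05 (-0.03 to 0.13). *NDUFS7*, which holds the last iron-sulfur cluster before ubiquinone, had -0.07 (-0.22 to 0.08). For *NDUFS3* the value was -0.05 (-0.18 to 0.08) and for *NDUFS8* -0.04 (-0.13 to 0.06). None of these 5 was called, and the interval of *NDUFS7*, the widest of them, reaches -0.22 on the log2 scale.

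*NDUFS5* (ENSG00000168653, plus strand of chromosome 1 from 39026318 to 39034636), an accessory subunit on the side of the intermembrane space, was at 40.03, 42.9 and 43.5 CPM in control and 48.02, 49.5 and 49.2 CPM in IGF2BP3 KD libraries. The lowest IGF2BP3 KD value lay above the highest control value, and the log2 fold change was 0.21 (SE 0.05, edgeR adjusted p = 0.0132). *NDUFA6* (ENSG00000184983, minus strand of chromosome 22 from 42085526 to 42090884), which binds the mitochondrial acyl carrier protein, rose from 38.3, 34.2 and 35 CPM to 41.5, 41.6 and 40.5 CPM. This was a log2 fold change of 0.20 (SE 0.06, edgeR adjusted p = 0.0317), lost without control replicate 2 or 3 or IGF2BP3 KD replicate 1, 2 or 3 (log2 fold change 0.17 to 0.21). Its promoter and 3′ UTR site are printed above, like those of *NDUFA9*. *NDUFA9* (ENSG00000139180, plus strand of chromosome 12 from 4649095 to 4694317), at the junction of the matrix and membrane arms, rose from 44.3, 48.6 and 44 CPM to 51.7, 54.6 and 50.4 CPM. Its log2 fold change was 0.20 (SE 0.06, edgeR adjusted p = 0.0324), and the call was lost without control replicate 1 or 3 or IGF2BP3 KD replicate 1, 2 or 3 (log2 fold change 0.16 to 0.22). *NDUFA2* (ENSG00000131495, minus strand of chromosome 5 from 140638740 to 140647771), an accessory subunit with a thioredoxin-like fold, went from 32.1, 31.7 and 30.03 CPM to 37.4, 35.8 and 33.8 CPM, with a log2 fold change of 0.19 (SE 0.06, edgeR adjusted p = 0.048). It lies at the threshold, and its call was lost whichever library was left out, with values from 0.15 to 0.22. On the opposite strand, 54 of its exonic bases are shared with *IK*, a splicing factor gene called lower at -0.17. *NDUFAF7* (ENSG00000003509, plus strand of chromosome 2 from 37231631 to 37253403), a methyltransferase that acts during assembly of complex I, rose from 23.9, 23.7 and 24.3 CPM to 27.2, 26.2 and 29.5 CPM. Its log2 fold change was 0.21 (SE 0.06, edgeR adjusted p = 0.0391), lost without control replicate 1, 2 or 3 or IGF2BP3 KD replicate 1 or 3 (log2 fold change 0.16 to 0.22).

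The 3 members of complex I nearest to the threshold on its other side are described after their values were seen. *NDUFB10*, a membrane arm subunit, was at 39.5, 41.1 and 38.1 CPM in control and 36.02, 35.4 and 34.3 CPM in IGF2BP3 KD libraries, with no overlap and a log2 fold change of -0.17 (SE 0.05, edgeR adjusted p = 0.0529). *NDUFA1*, an accessory subunit needed for early assembly, was at 21.7, 20.9 and 22.5 CPM and 23.5, 27.7 and 24.97 CPM, also without overlap, at 0.23 (SE 0.07, edgeR adjusted p = 0.0533). *NDUFA11*, a membrane subunit, was at 51.6, 54.2 and 54.4 CPM and 47.7, 46.3 and 51.4 CPM, at -0.14 (SE 0.05, edgeR adjusted p = 0.101). Both *NDUFB10* and *NDUFA11* were lower by DESeq2.

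In complex II, which oxidizes succinate and is also an enzyme of the TCA cycle, 1 of 4 genes was called. *SDHC* (ENSG00000143252, plus strand of chromosome 1 from 161314381 to 161363206), which anchors the enzyme in the membrane and binds heme, was at 127, 124 and 124 CPM in control and 131, 141 and 141 CPM in IGF2BP3 KD libraries. The groups did not overlap, and the log2 fold change was 0.14 (SE 0.04, edgeR adjusted p = 0.0247). The call was lost without control replicate 2 or 3 or IGF2BP3 KD replicate 2 or 3 (log2 fold change 0.12 to 0.13). *SDHA*, the flavoprotein, had a log2 fold change of -0.09 (95% interval -0.20 to 0.01), *SDHB*, the iron-sulfur subunit, 0.01 (-0.10 to 0.12), and *SDHD*, the other membrane anchor, 0.06 (-0.02 to 0.15).

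Complex III held the largest rises among called members, in 2 of its 9 genes. None of the 9 was lower by edgeR, with 0 by DESeq2 and 0 at a p under 0.05 before adjustment. *UQCRC2* (ENSG00000140740, plus strand of chromosome 16 from 21953288 to 21983660), a core protein on the matrix side, was at 174, 166 and 165 CPM in control and 209, 207 and 197 CPM in IGF2BP3 KD libraries. The rise of 21.3% was large against the spread of either group, with a log2 fold change of 0.28 (SE 0.04, edgeR adjusted p = 2.12e-04). *UQCRC1*, its partner in the same core, was at 212, 216 and 214 CPM and 216, 218 and 234 CPM, with a log2 fold change of 0.06 (95% interval -0.02 to 0.13) and no call. *UQCR10* (ENSG00000184076, plus strand of chromosome 22 from 29767369 to 29770413), a small membrane-spanning subunit, rose from 42.8, 40.8 and 46.5 CPM to 50.1, 56.7 and 58.8 CPM, with a log2 fold change of 0.35 (SE 0.07, edgeR adjusted p = 0.00462). *UQCRFS1*, the Rieske iron-sulfur protein itself, had 0.02 (-0.06 to 0.10).

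The summed level of the 9 complex III genes was 887 ± 7.33 CPM in control and 962 ± 13.1 CPM in IGF2BP3 KD libraries (SD, n = 3), higher by 8.40% and without overlap. Without *UQCRC2* and *UQCR10* the difference was 3.98%, still without overlap. Such sums weigh abundant genes most and carry no test here. They differed by -1.08% in complex I, 2.24% in complex II, 3.88% in complex IV and 1.83% in complex V. The groups overlapped in complexes II and V but, as in complex III, not in complexes I and IV. Without the called genes, these 4 sums differed by 0.0353%, -0.298%, 0.629% and 0.714%, and the groups overlapped in each. *CYC1*, the cytochrome c1 subunit of complex III that the symbols left out, went the other way. It was at 221, 242 and 226 CPM in control and 208, 205 and 209.8 CPM in IGF2BP3 KD libraries, with a log2 fold change of -0.14 (SE 0.04, edgeR adjusted p = 0.015), called in 4 of the 6 fits with 1 library left out.

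In complex IV, cytochrome c oxidase, 3 of 15 tested genes were higher and none was lower by edgeR, with 0 by DESeq2 and 1 at a p under 0.05 before adjustment. *NDUFA4* (ENSG00000189043, minus strand of chromosome 7 from 10931943 to 10940153), a late-added subunit, was at 177, 169.8 and 174 CPM in control and 192, 189 and 199.5 CPM in IGF2BP3 KD libraries. All IGF2BP3 KD values were above all control values, and the log2 fold change was 0.16 (SE 0.03, edgeR adjusted p = 0.00536). *COX7A2L* (ENSG00000115944, minus strand of chromosome 2 from 42333546 to 42425088), which joins complexes III and IV into supercomplexes, rose from 90.9, 83.6 and 89.4 CPM to 104, 98.4 and 94.7 CPM. Its log2 fold change was 0.17 (SE 0.05, edgeR adjusted p = 0.0264), lost without control replicate 2 or 3 or IGF2BP3 KD replicate 1 or 2 (log2 fold change 0.13 to 0.18). *COX6C* (ENSG00000164919, minus strand of chromosome 8 from 99873200 to 99893707), a membrane-spanning accessory subunit, rose from 129, 134 and 123 CPM to 137, 143 and 148 CPM, with a log2 fold change of 0.15 (SE 0.04, edgeR adjusted p = 0.0313). This call was lost without control replicate 1 or 3 or IGF2BP3 KD replicate 2 or 3 (log2 fold change 0.11 to 0.14). Subunits that bind the catalytic core were near 0, with -0.03 (95% interval -0.12 to 0.07) for *COX4I1*, -0.00 (-0.10 to 0.09) for *COX5A* and 0.07 (-0.02 to 0.17) for *COX5B*.

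Several complex IV subunits exist as isoforms of different genes, and OE-19 cells expressed mostly the common ones. Levels are compared per kilobase of the reference transcript. *COX4I1* was at 249.9 CPM per kilobase, while *COX4I2*, the isoform known from lung, had 2 counts in 1 library and none in the other 5. *COX6A1* was at 241 CPM per kilobase and *COX6A2*, known from heart and muscle, had no count in any library. *COX7A2* was at 127 and *COX7A1*, the isoform of heart and muscle, at 0.469 CPM per kilobase. *COX8C* and *COX7B2* had no counts, against 216 CPM per kilobase for *COX8A* and 41.6 for *COX7B*.

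The testis isoform *COX6B2* was at 1.78 CPM per kilobase, far below *COX6B1* at 230.0. *COX6B2* had 153, 151 and 145 counts in control and 192, 226 and 168 counts in IGF2BP3 KD libraries. Its values did not overlap, but with a log2 fold change of 0.52 (SE 0.19, edgeR adjusted p = 0.0826) it was not called. *COX6B1* had -0.09 (SE 0.04, edgeR adjusted p = 0.142), also no call. *NDUFA4L2*, the paralog of *NDUFA4* known as a hypoxia-induced gene, was at 1.30 CPM per kilobase against 90.2 for *NDUFA4*, with 77, 71 and 83 counts in control and 52, 80 and 99 counts in IGF2BP3 KD libraries. The 2 groups overlapped, and the log2 fold change of 0.11 has a 95% interval from -0.50 to 0.71.

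In complex V, the ATP synthase, 3 of 18 tested genes were higher and none was lower by edgeR. *ATP5MC1* was lower by DESeq2 and had an unadjusted p under 0.05 in edgeR, the 1 gene of complex V for which either holds toward lower. *ATP5IF1* (ENSG00000130770, plus strand of chromosome 1 from 28236109 to 28246906), the inhibitor that stops the enzyme from running backwards and burning ATP, was at 31.5, 32.2 and 31.2 CPM in control and 37.6, 37.1 and 36.3 CPM in IGF2BP3 KD libraries. The libraries within each group were close together, and the log2 fold change was 0.23 (SE 0.05, edgeR adjusted p = 0.0103). *ATP5MJ* (ENSG00000156411, minus strand of chromosome 14 from 103912288 to 103928269), a small membrane subunit, rose from 30.2, 30 and 28.7 CPM to 32.9, 37.8 and 34.6 CPM, with a log2 fold change of 0.24 (SE 0.06, edgeR adjusted p = 0.0211). The call was lost without control replicate 2 or 3 or IGF2BP3 KD replicate 2 or 3 (log2 fold change 0.18 to 0.25). *ATP5PB* (ENSG00000116459, plus strand of chromosome 1 from 111448864 to 111462773), the b subunit of the peripheral stalk, rose from 187, 181 and 181 CPM to 199.6, 203 and 196 CPM, at 0.13 (SE 0.03, edgeR adjusted p = 0.0126). It was lost without control replicate 2 or 3 or IGF2BP3 KD replicate 1 or 2 (log2 fold change 0.11 to 0.12). On the opposite strand it shares 90 exonic bases with *WDR77*, called lower at -0.27.

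None of the 5 F1 subunits, which form the catalytic head, was called by edgeR or DESeq2. Before adjustment, 1 of them, *ATP5F1D*, had a p under 0.05, toward higher, at 0.10. *ATP5F1B*, the catalytic beta subunit, had the highest level of the list at 369.7 CPM per kilobase and a log2 fold change of -0.01 (95% interval -0.07 to 0.05). *ATP5F1A*, the alpha subunit, had 0.05 (-0.02 to 0.12). The c subunit of the rotor is made from 3 genes that code for the same mature protein. *ATP5MC1* had a log2 fold change of -0.13 (-0.25 to -0.01), *ATP5MC2* 0.11 (0.01 to 0.22) and *ATP5MC3* -0.01 (-0.08 to 0.07), and none was called by edgeR. Their summed level was 345 ± 3.63 CPM in control and 339 ± 7.64 CPM in IGF2BP3 KD libraries (SD, n = 3).

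**Figure D3:**
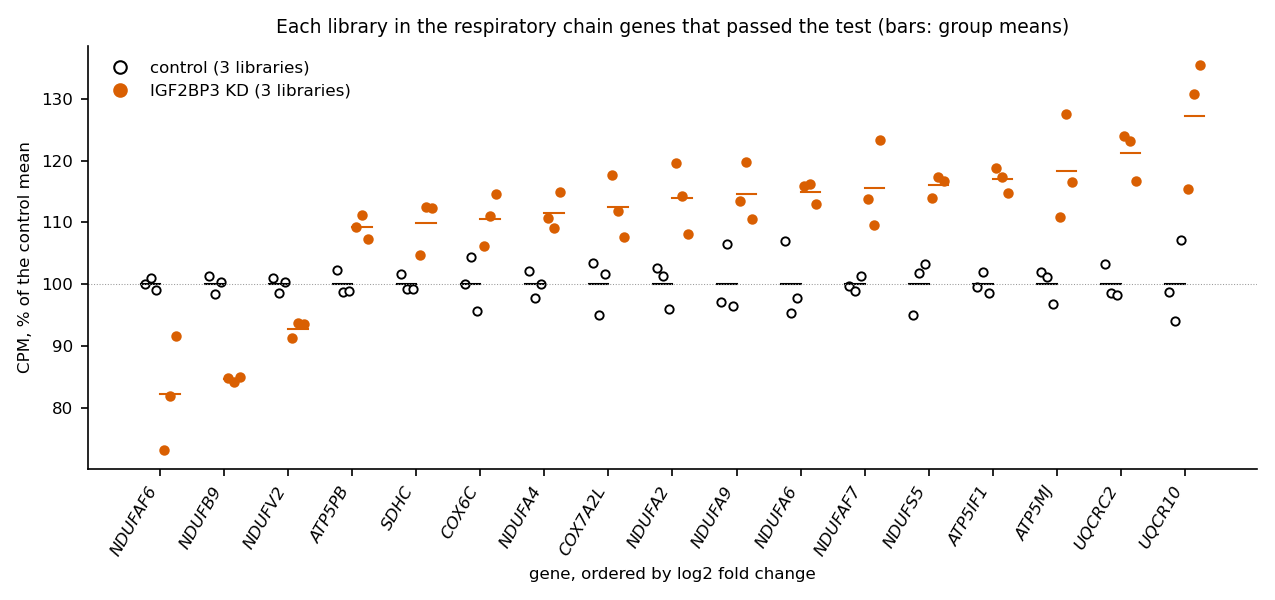
CPM of each library as a percent of the control mean (y axis) for the 17 called genes (x axis), with control libraries as open and IGF2BP3 KD libraries as filled points and bars at the group means. The groups do not overlap in any of the 17 genes. These genes were chosen by the test on the same libraries, so the separation adds no support to the calls. *NDUFAF6* and *UQCR10* show the widest spread among IGF2BP3 KD libraries.

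Some members cannot be measured well from these counts. Of the 98 genes, 53 share exonic bases with another gene of GENCODE v44, 30 with a gene on the same strand and 37 with a gene on the opposite strand. The library kit keeps the strand, but whether the counting used it is not given in the sources used here. Among the 17 called genes, 7 share no exonic base with another gene: *SDHC*, *NDUFA4*, *COX7A2L*, *NDUFA6*, *NDUFS5*, *ATP5MJ* and *UQCRC2*. *NDUFA9* shares 1103 exonic bases on the same strand with a gene at a mean of 2.07 CPM. Pseudogenes named after 47 members took 0.228% of the summed counts of all members and these pseudogenes, and at most 2.20% for a called gene, *NDUFV2*.

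*NDUFA7*, an accessory subunit of complex I, had counts that moved against those of a gene it shares exons with. It had 108, 121 and 536 counts in control and 462, 352 and 576 counts in IGF2BP3 KD libraries, so control replicate 3 lay with the IGF2BP3 KD libraries. A coding gene without an approved symbol, ENSG00000167774, shares 452 exonic bases with it on the same strand and had 1160, 1293 and 651 counts in control and 484, 686 and 590 in IGF2BP3 KD libraries. It was called lower, with a log2 fold change of -0.67 (edgeR adjusted p = 0.0146). Of the sum of both genes, *NDUFA7* took 8.52%, 8.56% and 45.2% in control and 48.8%, 33.9% and 49.4% in IGF2BP3 KD libraries. The sum itself was 19.7 ± 1.02 CPM in control and 17.6 ± 0.891 CPM in IGF2BP3 KD libraries (SD, n = 3). *NDUFA7* had the largest positive log2 fold change of the list, 0.92 (SE 0.54, edgeR adjusted p = 0.291), and was not called.

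**Figure D4:**
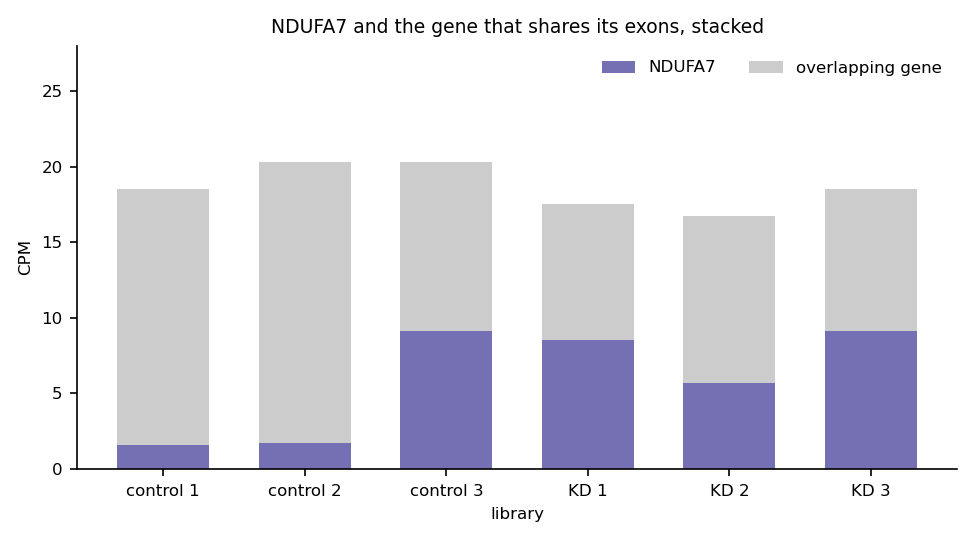
CPM (y axis) of *NDUFA7* and of the gene that shares its exons, stacked, in each of the 6 libraries (x axis). The stacks lie between 16.7 and 20.3 CPM, while the share of *NDUFA7* is small only in control replicates 1 and 2.

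Another such case is *ATP5ME*, a membrane subunit of complex V, which shares 571 exonic bases with *MYL5* on the opposite strand. *ATP5ME* was at 3.78, 3.90 and 4.71 CPM in control and 5.63, 6.46 and 4.70 CPM in IGF2BP3 KD libraries. Its groups overlapped, with a log2 fold change of 0.44 (SE 0.16, edgeR adjusted p = 0.0888), and *MYL5* was called higher at 0.48. The readthrough genes *ATP5MF-PTCD1* and *NDUFC2-KCTD14* share exons with both of their parent genes. *ATP5MF-PTCD1* had 35, 11 and 30 counts in control and 16, 1 and 0 counts in IGF2BP3 KD libraries, at a log2 fold change of -1.95 (SE 1.07, edgeR adjusted p = 0.254), and *NDUFC2-KCTD14* had 0.05. *UQCRHL*, an intronless copy of *UQCRH*, had 59 to 117 counts per library and a log2 fold change of -0.10. The member *ATP5MGL* had 0 to 10 counts per library and was not tested, like *COX4I2*, *COX6A2*, *COX7B2* and *COX8C*.

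Regulators of mitochondrial genes, these factors among them, were called in either direction. Of 17 such genes, 5 (29.4%) were lower and 2 (11.8%) higher, against 10.6% and 9.87% of all tested genes, and the median log2 fold change was -0.09. All 17 had a mean CPM of 10 or more, where 19.7% of coding genes were lower and 16.6% higher. *GABPA*, the DNA-binding subunit of GABP, was at 66.4, 68.9 and 73.2 CPM in control and 54.7, 54.8 and 49.2 CPM in IGF2BP3 KD libraries, a log2 fold change of -0.39 (SE 0.06, edgeR adjusted p = 5.85e-04). *GABPB1*, a partner subunit that activates transcription, was at 21.7, 21.04 and 19.1 CPM and 28.01, 24.2 and 24.2 CPM, higher by 0.31 (SE 0.08), a call that was lost without control replicate 3 and without IGF2BP3 KD replicate 1. *YY1* was at 124, 124 and 122 CPM and 139.9, 134 and 140.1 CPM, with a log2 fold change of 0.16 (SE 0.03, edgeR adjusted p = 0.00593). *NRF1* was not called, at -0.22 (SE 0.09, edgeR adjusted p = 0.119).

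*PPARGC1A*, the coactivator PGC-1α that drives mitochondrial biogenesis, was at 51.3, 52.5 and 51.5 CPM in control and 40.2, 39.7 and 40.9 CPM in IGF2BP3 KD libraries, a log2 fold change of -0.36 (SE 0.05, edgeR adjusted p = 2.76e-04). *TWNK*, the helicase of mitochondrial DNA, had a log2 fold change of -0.31 and *POLG*, its polymerase, -0.27, both called lower. These calls held in each of the 6 fits with 1 library left out. *LRPPRC*, which stabilizes mitochondrial mRNAs, was lower at -0.11, a call held in 5 of the 6 fits. *TFAM*, which packs and transcribes mitochondrial DNA, was not called, at -0.04 (95% interval -0.16 to 0.07). *GABPA* and *PPARGC1A* hold GATTACT in the 3′ UTR. *PPARGC1A*, *YY1* and *PPARGC1B*, which was not called at 0.25, hold ACACATC. In the lists that follow, *COX20* at -0.01, *TMEM70* at -0.05, *OXA1L* at 0.06 and *GPD2* at 0.00 hold GATTACT and were not called. *MDH2*, given below, holds it too. *LYRM2* at 0.13 holds ACACATC and was not called. *GABPB1*, *LRPPRC* and these uncalled holders of either word are named after their values were seen.

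Subunits made from mitochondrial DNA went slightly lower where they passed the test. Of the 13, 5 (38.5%, against 10.6% of all tested genes and 19.7% of coding genes with a mean CPM of 10 or more) were lower and none was higher by edgeR or DESeq2, with 0 higher at an unadjusted p under 0.05. *MT-ND2* was at 5237, 4942 and 5086 CPM in control and 4570.2, 4762 and 4585 CPM in IGF2BP3 KD libraries, a log2 fold change of -0.13 (SE 0.02, edgeR adjusted p = 0.0019). The others were *MT-ND1* at -0.16, *MT-ND4* at -0.09, *MT-ATP8* at -0.16 and *MT-CYB* at -0.07. *MT-ATP6*, which overlaps *MT-ATP8* and is named after its value was seen, was not called, at 0.01 (SE 0.02, edgeR adjusted p = 0.732). How the counting split reads of these overlapping genes is not given in the sources used here. *MT-ND1* was lost without IGF2BP3 KD replicate 1, and *MT-CYB* without control replicate 1 or 3 or IGF2BP3 KD replicate 1 or 3. The 3 catalytic subunits of complex IV were near 0, with 0.00 for *MT-CO1*, 0.02 for *MT-CO2* and -0.01 for *MT-CO3*. Genes of the mitochondrial genome took 8.67% to 9.06% of the counts of each library.

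Assembly factors outside the list were called in 6 of 47 cases, 5 higher and 1 lower. These are shares of 10.6% and 2.13%, and the share of higher genes was near the 9.87% of all tested genes. The 6 factors of complex III, a group that was not planned beforehand, held 3 of these rises. *TTC19*, which clears fragments of the Rieske protein, was at 83.6, 83.4 and 84 CPM in control and 119, 111 and 119 CPM in IGF2BP3 KD libraries, a log2 fold change of 0.48 (SE 0.04, edgeR adjusted p = 1.09e-05). *LYRM7*, the chaperone that holds the Rieske protein before insertion, was at 27.9, 27.4 and 25.1 CPM and 32.6, 31.9 and 32.4 CPM, at 0.27 (SE 0.06, edgeR adjusted p = 0.0089). *UQCC3*, named after its value was seen, was at 2.51, 3.96 and 2.51 CPM and 4.69, 4.70 and 5.17 CPM, at 0.70 (SE 0.20, edgeR adjusted p = 0.0295), a call held in 1 of the 6 fits. The other 3 factors of complex III were not called, with -0.05 for *BCS1L*, -0.10 for *UQCC1* and -0.23 for *UQCC2*. Of complex IV factors, *COX18*, which inserts a catalytic subunit into the membrane, was higher at 0.35 and *COA3* at 0.33, held in 4 and 2 of the 6 fits. *AIFM1*, which supports import of complex I subunits, was lower at -0.15, held in 3 of the 6 fits.

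The TCA cycle, which makes the NADH and succinate that the chain oxidizes, held larger called falls than any of the chain. Of its 14 genes, 3 were lower and 3 higher (21.4% each, against 10.6% and 9.87% of all tested genes), and the median log2 fold change was 0.02. All 14 had a mean CPM of 10 or more, where 19.7% of coding genes were lower and 16.6% higher. *MDH2*, the malate dehydrogenase of mitochondria, was at 264, 279 and 278 CPM in control and 172, 169 and 162 CPM in IGF2BP3 KD libraries. It fell by 38.8%, a log2 fold change of -0.71 (SE 0.03, edgeR adjusted p = 2.33e-07). *CS*, citrate synthase, was at 159, 163 and 161 CPM and 116, 119.8 and 116 CPM, at -0.46 (SE 0.03, edgeR adjusted p = 3.24e-06). The values of both genes were far below control in each library, and the calls held in each of the 6 fits. *MDH2* holds GATTACT in the 3′ UTR and *CS* does not. *IDH3B* was the other lower gene at -0.17, and *IDH2* at 0.28, *SUCLA2* at 0.17 and *DLST* at 0.17 were higher. No member of the respiratory chain with a mean CPM of 10 or more changed as much as *MDH2* or *CS*.

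Of 17 genes for electron carriers and coenzyme Q synthesis, 2 (11.8%) were lower and 3 (17.6%) higher, against 10.6% and 9.87% of all tested genes, with a median of 0.00. The lowest of the 17 had a mean of 8.14 CPM. Of coding genes with a mean CPM of 10 or more, 19.7% were lower and 16.6% higher. *CYCS*, cytochrome c, was not called at -0.06 (95% interval -0.14 to 0.02). *COQ6*, a hydroxylase of coenzyme Q synthesis, was lower at -0.31, while *COQ8A* at 0.29 and *COQ4* at 0.23, both of the same pathway, and *ETFA*, which carries electrons from fatty acid oxidation, at 0.17 were higher. *COQ8A* and *ETFA* held in each of the 6 fits with 1 library left out, *COQ6* in 3 and *COQ4* in 2.

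**Figure D5:**
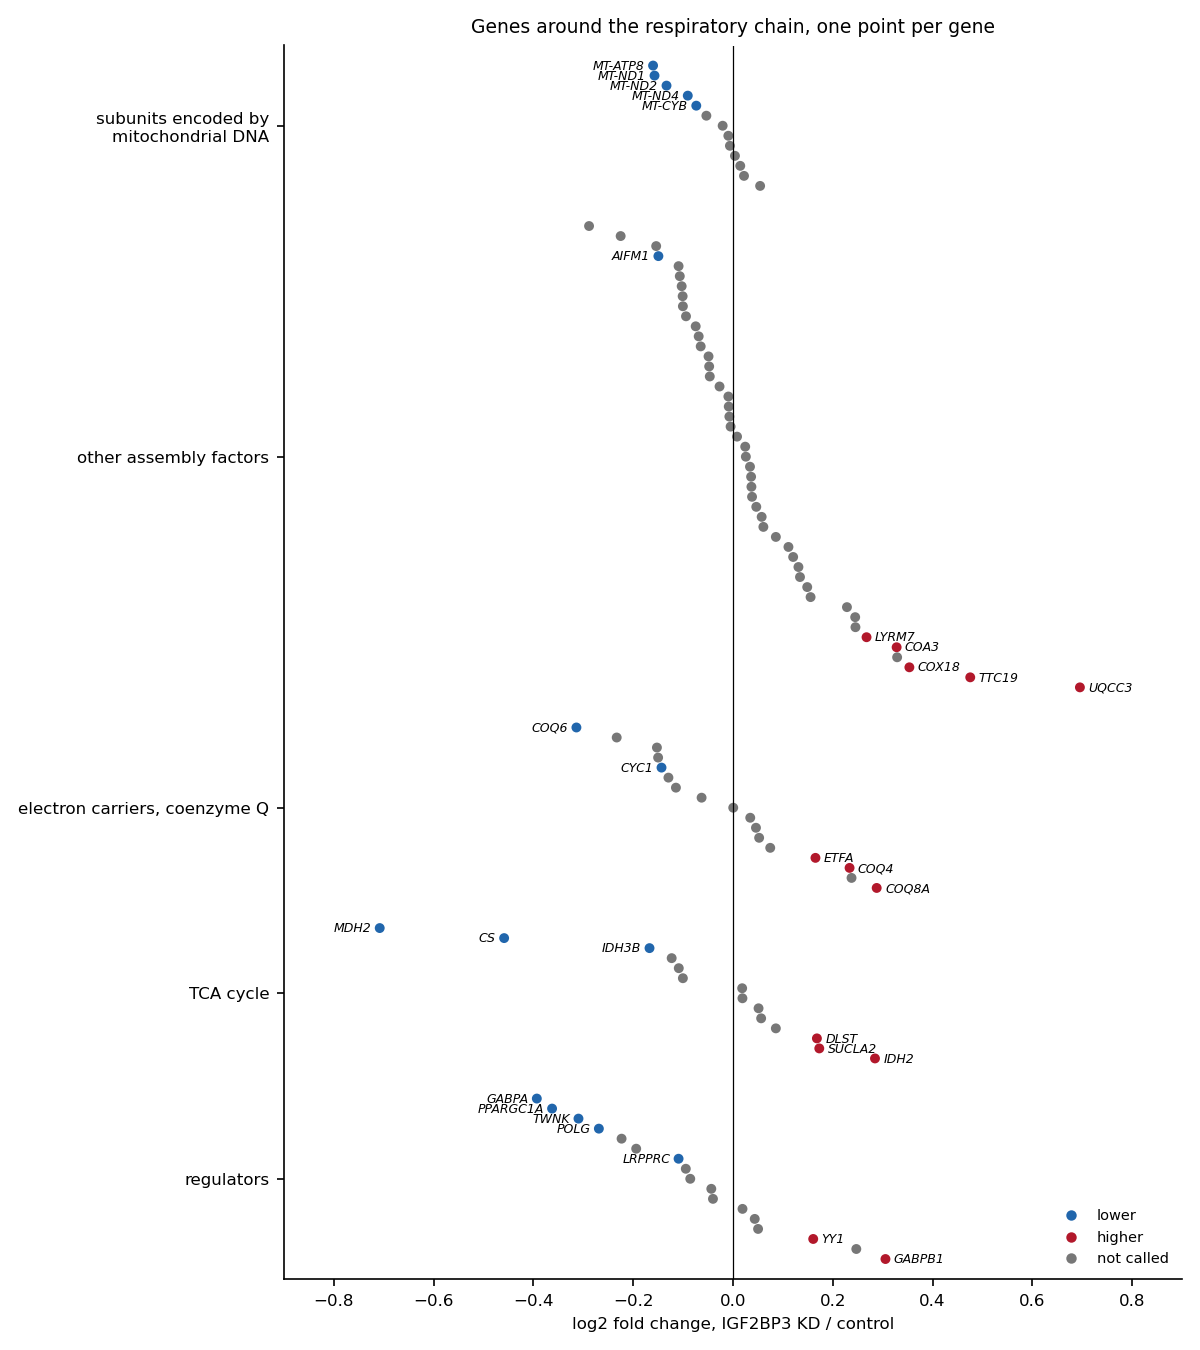
The log2 fold change of IGF2BP3 KD over control (x axis) of each gene in 5 lists around the respiratory chain (y axis), with genes called lower in blue and higher in red. *MDH2* and *CS* lie furthest to the lower side, and the 5 lower mitochondrial DNA genes lie between -0.16 and -0.07.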

How the data were processed

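PolyA RNA of OE-19 cells was sequenced in 3 control and 3 IGF2BP3 KD libraries with paired reads of 150 bases. The authors deposited raw read counts per gene, not normalized, and the submitters' processing notes name fastp, HISAT2 and featureCounts as tools and hg38 as the build. Tool versions, annotation release and strand setting of the counting are not given in the sources used here, so counts of overlapping genes are uncertain. The table holds 60612 rows, and 132 repeated rows of 44 identifiers were left out.

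Genes were kept by filterByExpr (min.count 10, min.total.count 15), libraries scaled by TMM, and the quasi-likelihood model of edgeR 4.0.16 (glmQLFit, glmQLFTest; R 4.3.3) fitted with no block. P-values of the 19778 genes were adjusted by Benjamini-Hochberg, with a threshold of 0.05. Standard errors were derived from the F statistic. Intervals at 95% cover the spread between libraries. The common dispersion had a square root of 0.148. The scripts were tested on simulated data. Over genes averaging 50 counts or more, the chi-square per degree of freedom was 9.86 to 17.6 within groups, so no library repeats another. Deviations of libraries with the same replicate number correlated at -0.0315 to 0.00915, so no shared effect of the number was seen. This cannot show whether the libraries were prepared in pairs, which the labels do not say.

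Positions, overlaps and 3′ UTRs come from GENCODE v44 on hg38 and promoters from RefSeq. The members and lists were chosen with earlier results of these data known. The genes named are all called members, the extremes of each complex, core subunits, isoform pairs, members with GATTACT or ACACATC, *IGF2BP3*, and up to 5 called genes of each other list by smallest p. The values of 1 member are not reported here. Others are named as chosen after their values were seen or because they overlap a member. The alternatives were DESeq2 1.42.0, RLE scaling, other low-count filters, the replicate block, leaving out each library, removing mitochondrial genes, coding genes only, GC and length offsets (lowess span 0.3), a threshold of 0.01, members without overlaps and structural subunits only.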

Additional observations from a re-analysis of the deposited data

How the results depend on the processing

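None of the 210 tested members, list genes and the target reversed a called direction in any alternative. The number of lower members, 3 in the report, was 6 with DESeq2, 8 with GC content offsets, 5 with exonic length offsets, 7 and 6 with these offsets and the replicate block, 1 at an adjusted p under 0.01 and 0 among the 41 tested members that overlap no other gene. Among these 41, 4 had an unadjusted p under 0.05 toward lower in edgeR and 2 were lower by DESeq2 (*NDUFB10* and *ATP5MC1*). The number of higher members, 14 in the report, was 5 without the low-count filter, 9 with exonic length offsets and 8 with these and the replicate block, 3 at an adjusted p under 0.01 and 7 among members without overlap. Over all genes, 1354 of 38462 were higher without the low-count filter. Of 19778 genes, 1917 were higher with exonic length offsets and 1773 with these and the replicate block. With GC content and exonic length offsets and the replicate block, 2355 and 2066 of the 19778 were lower. Leaving out 1 library gave 1 to 4 lower members, 6 to 13 higher members and a median log2 fold change from 0.0246 to 0.0539. The median, 0.0467 in the report, was 0.0212 with exonic length offsets, 0.0359 with GC content offsets and the replicate block, 0.0181 with exonic length offsets and the replicate block, and 0.0331 among members without overlap. For the offsets, the cause was not tested. The replicate block alone gave 3 lower and 13 higher members. The block cost the calls of *NDUFA2* and *NDUFAF7* among members and of *MT-CYB*, *COQ4*, *KRT8* and *KRT18* outside them, and no other call among these 210 genes. Genes named only because they overlap a member were not followed in the alternatives. DESeq2 kept all 3 lower and all 14 higher members, the fit without the low-count filter 2 and 5, and exonic length offsets 3 and 9, without *NDUFS5*, *NDUFA2*, *NDUFA6*, *SDHC* and *COX6C*. The smallest called change of a member, -0.11 on the log2 scale, was that of *NDUFV2* at a mean of 231 CPM.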
